A study of Mus musculus with 24 samples.

Results

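The lungs of 9 recombinant inbred mouse strains were divided by their array signal for Bcat2 RNA. The high class had 6 strains (BXH2, BXH4, BXH6, BXH10, BXH14 and BXH19), whose Bcat2 signal was near that of the progenitor C3 (C3H/HeJ), and the low class had 3 strains (BXH7, BXH8 and BXH9), whose signal was near that of the progenitor B6 (C57BL/6J). The classes were chosen by the measured Bcat2 signal and not by genotypes, so Bcat2 describes them and its difference between them is no result. They take in 9 of the 12 strains and 18 of the 24 arrays of the series. The remaining 6 arrays, 2 each from B6, C3 and their F1 hybrid (BXHF1), played no part in the division and served as the reference for the direction of progenitor differences.

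All mice were males of 8 weeks from Jackson Lab that received no treatment, and each array measured total RNA of 1 lung sample. Each BXH strain was inbred from a cross of B6 and C3 until nearly every locus was fixed for the allele of one progenitor, so the high and low classes differ at many places in the genome beside the region of Bcat2. The series title names the comparison of the recombinant inbred strains with the progenitors and the hybrid as its purpose. Nothing in the labels states that a strain's 2 arrays are from different mice, so a p-value between the progenitors measures spread between arrays that may be technical. The classes were compared on 1 mean per strain, and their p-values measure the spread between strains.

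The values are Affymetrix signals, a linear measure of how brightly a probe set (a group of short probes against one transcript) lit up. The deposited arrays shared a common scale, with a trimmed mean signal between 500.11 and 500.13. The typical lung epithelial lists were bright in every strain, with mean log2 values of 12.61 to 12.84 for alveolar type 2 genes and 12.06 to 12.39 for alveolar type 1 genes in the high class, and 12.66 to 12.81 and 12.03 to 12.38 in the low class. In whole lung, fewer cells of a type and less RNA per cell cannot be told apart.

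Bcat2 is the mitochondrial branched-chain aminotransferase, which takes the amino group from leucine, isoleucine and valine in the first step of their breakdown. The branched-chain keto acids it makes are oxidised by the dehydrogenase complex of Bckdha, Bckdhb, Dbt and Dld, and leucine itself is sensed by the mTORC1 kinase pathway. In a set of recombinant inbred strains, genes lying close together on a chromosome tend to be inherited from the same progenitor, while genes on other chromosomes are shared out independently.

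The promoters of Uri1, Pop4 and Bcat2 are shown because these were the chromosome 7 transcripts whose strain pattern was most alike in the results. Each run covers 250 bases before to 50 bases after a start of transcription in RefSeq (assembly GRCm38.p6, the C57BL/6J reference), and capitals mark matches on either strand to TGACGTCA (the cAMP response element), CCAAT (the CCAAT box), TATAAA (the TATA box) or GGGCGG (the GC box), motifs that were picked after the sequences had been seen.
Uri1, chr7:38019503-38019802, minus strand: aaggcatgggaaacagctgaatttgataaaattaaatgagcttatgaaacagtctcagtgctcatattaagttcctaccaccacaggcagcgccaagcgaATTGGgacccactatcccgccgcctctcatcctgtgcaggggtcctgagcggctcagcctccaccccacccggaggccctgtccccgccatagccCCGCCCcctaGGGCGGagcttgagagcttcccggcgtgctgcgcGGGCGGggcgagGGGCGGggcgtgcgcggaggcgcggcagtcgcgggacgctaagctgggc
Pop4, chr7:38271299-38271598, minus strand: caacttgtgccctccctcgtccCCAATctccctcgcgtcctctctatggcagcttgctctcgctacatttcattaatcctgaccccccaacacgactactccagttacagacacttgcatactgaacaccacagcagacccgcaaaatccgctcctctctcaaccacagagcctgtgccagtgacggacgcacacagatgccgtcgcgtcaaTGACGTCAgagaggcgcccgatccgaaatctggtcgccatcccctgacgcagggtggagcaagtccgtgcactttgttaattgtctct
Bcat2, chr7:45569903-45570202, plus strand, the first of 2 listed starts: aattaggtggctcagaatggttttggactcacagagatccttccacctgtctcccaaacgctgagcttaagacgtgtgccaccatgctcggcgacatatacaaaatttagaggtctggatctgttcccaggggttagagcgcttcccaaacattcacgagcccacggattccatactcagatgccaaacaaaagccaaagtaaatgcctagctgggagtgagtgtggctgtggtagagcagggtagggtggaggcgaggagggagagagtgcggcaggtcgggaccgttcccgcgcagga
The Uri1 window held 4 matches to GGGCGG and 1 to CCAAT, the Pop4 window 1 match to TGACGTCA and 1 to CCAAT, and neither Bcat2 window any of them. Over all 32817 windows of that length, 35.6% held GGGCGG, 37.4% CCAAT, 13.6% TATAAA and 1.79% TGACGTCA, so only the last is an uncommon match. No matches overlapped in these windows. These are letters of the B6 reference; the C3 sequence was not used here, and the RefSeq coordinates are not those of the arrays, whose files name no genome build.

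The Bcat2 signal left a clear gap between the classes (1 probe set, 1425764_a_at). How its probes match the allele of each progenitor was not tested. A strain signal is the mean of its 2 arrays taken on the log2(signal + 16) scale and turned back to signal. It was 498 in BXH2, 469 in BXH6, 467 in BXH4, 456 in BXH10, 446 in BXH19 and 433 in BXH14. In the low class it was 247 in BXH9, 214 in BXH8 and 204 in BXH7. BXH14 was the strain just inside the high class and BXH9 the strain nearest to it in the low class. The progenitors stood at 466.3 (C3) and 222 (B6), and F1 lay between them at 371. Single arrays were noisier, from 359.8 to 519.8 in the high class and from 170.8 to 303.7 in the low class, without overlap.

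Bcat2 not counted, no gene passed the test between the classes in the gene-wise comparison. With each gene represented by its brightest probe set, 0 of 8279 genes (0%) had an adjusted p below 0.05 (limma on the 9 strain means, Benjamini-Hochberg over all genes), on chromosome 7 or elsewhere. Without adjustment 284 genes (3.43%) had p below 0.05, 126 with a higher mean in the high class (1.52%) and 158 with a lower one (1.91%). The strain means of the classes did not overlap for 130 genes (1.57%), 50 higher (0.604%) and 80 lower (0.966%) in the high class. These are the background shares against which the chromosome 7 genes are read. When every probe set above the filter was tested on its own, 1 of 12498 (0.008%) passed, and it belonged to Uri1 on chromosome 7.

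Uri1 encodes a prefoldin-like protein that works as a chaperone scaffold in the assembly of RNA polymerases. It lies before Bcat2 in gene order, with 175 protein-coding genes between them. On probe set 1433913_at the high class had strain signals of 376 in BXH2, 337 in BXH6, 331 in BXH19, 330.0 in BXH4, 289 in BXH10 and 276 in BXH14. The low class had 936 in BXH7, 822 in BXH8 and 739 in BXH9. Every low strain was therefore far above every high strain, and the single arrays were as well separated, with a highest array of 410.7 in the high class and a lowest array of 642.4 in the low class. The signal fell by 1.32 (SE 0.11) on the log2 scale from the low to the high class, a 2.50-fold higher level in the low class (adjusted p = 0.00131 over all probe sets, limma; exact two-sided permutation p = 0.0238, the smallest that 84 assignments of the strains allow).

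The progenitors, whose arrays took no part in the division, differed in Uri1 the same way. B6 gave array signals of 1027.6 and 808.3, and C3 gave 265.0 and 315.0. The C3 minus B6 difference was -1.60 (SE 0.21, adjusted p = 1.43e-04, limma on 24 arrays with every probe set), where 209 of 12499 probe sets (1.67%) passed. F1 had 537.2 and 589.0, at a position of 0.42 on the log2 scale that runs from 0 at B6 to 1 at C3. Bcat2 not counted, this was the single probe set that passed in the division of the strains, and it passed between the progenitors too.

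The other Uri1 probe sets did not share this pattern. Probe set 1419273_at had strain signals of 867 to 1061 in the high class and 774 to 962 in the low class, a difference of 0.14 (SE 0.10). Probe set 1419274_at had a difference of 0.12 (SE 0.11). Their classes overlapped, and C3 minus B6 was 0.19 (SE 0.15) and 0.31 (SE 0.19), neither of which passed. Uri1 is named here after its values were seen, since the rule for named genes takes each gene by its brightest probe set, which for Uri1 is 1419273_at. Whether the difference lies in one form of the transcript, or in how the probes match the allele of each progenitor, was not tested.

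**Figure D1:**
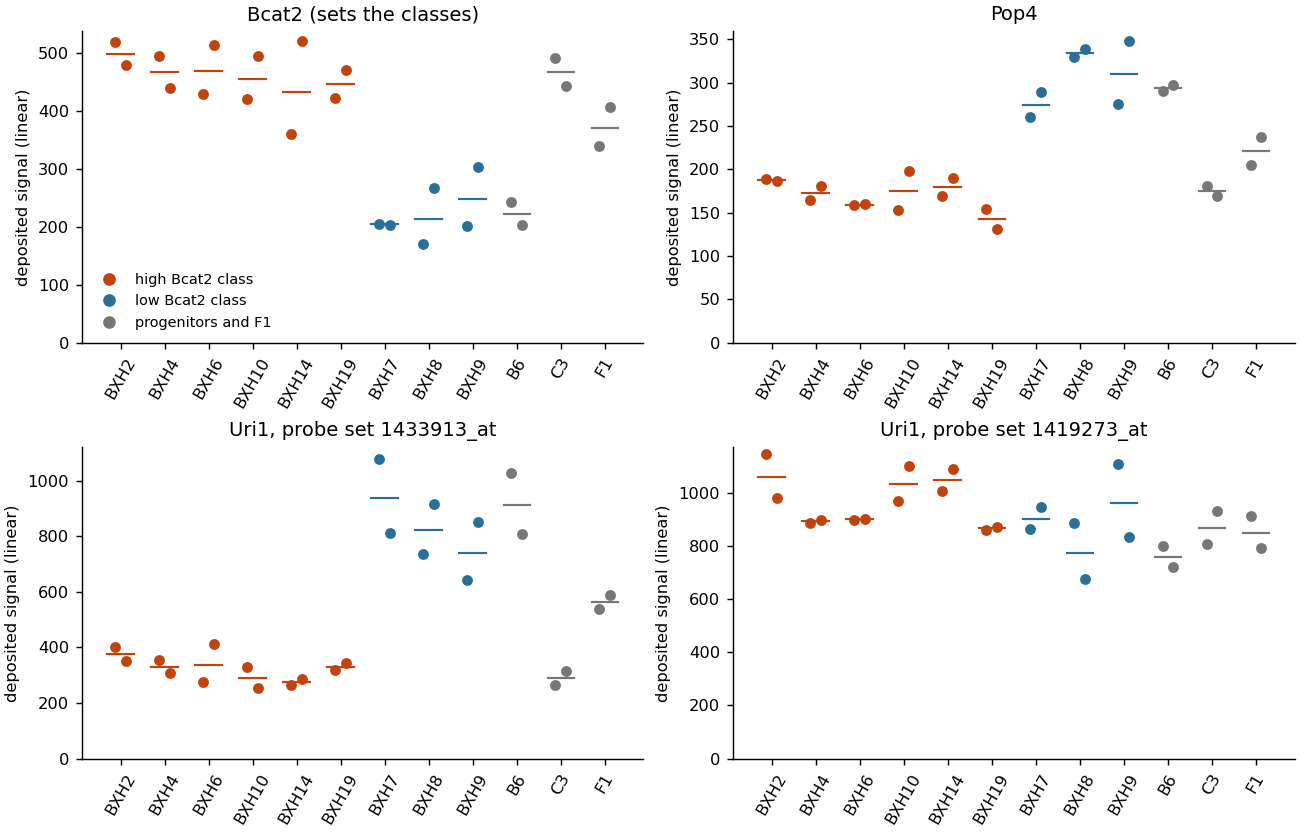
Deposited signal (linear axis from 0) of each array, as points, with a line at the strain signal, for Bcat2, Pop4 and a pair of Uri1 probe sets; orange marks the 6 high strains, blue the 3 low strains, and grey the progenitors and F1. Pop4 and Uri1 1433913_at are higher in all 3 low strains and B6 than in all 6 high strains and C3, and Uri1 1419273_at is not.

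Pop4 encodes a protein subunit of RNase P and RNase MRP, the ribonucleoproteins that mature tRNA and ribosomal RNA. It is the fourth gene after Uri1 in gene order, and 171 protein-coding genes lie between it and Bcat2. Its single probe set (1448419_at) had array signals of 188.6 and 186.1 in BXH2, 164.4 and 180.4 in BXH4, 158.7 and 159.6 in BXH6, 153.5 and 198.1 in BXH10, 169.2 and 190.1 in BXH14, and 154.3 and 131.5 in BXH19. In the low class it had 260.0 and 288.7 in BXH7, 329.6 and 338.3 in BXH8, and 275.2 and 348.4 in BXH9. No array of the high class reached the lowest of the low class. As for Uri1, how the probes match the allele of each progenitor was not tested.

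The mean strain signal of Pop4 was 169 ± 16.03 (SD, n = 6) in the high class and 306 ± 30.1 (SD, n = 3) in the low class. The difference was -0.80 (SE 0.11, 95% interval -1.04 to -0.55) on the log2 scale, the lowest p of all genes other than Bcat2. It did not pass over all genes (p = 1.83e-05, adjusted p = 0.0757, limma; exact two-sided permutation p = 0.0238). The adjusted p lay between 0.000745 and 0.9997 over 40 alternative settings, all 40 with a lower level in the high class, and passed in 3 of them. Leaving Bcat2 itself out of the adjustment gave 0.151, and a fit with the cardiac muscle list mean as a covariate gave a difference of -0.70 with an adjusted p of 0.9997.

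Between the progenitors Pop4 had 290.7 and 297.5 in B6 and 180.9 and 168.7 in C3. C3 minus B6 was -0.70 (SE 0.17, adjusted p = 0.0439, limma), which passed, as did 138 of 8280 genes (1.67%). This call was lost when any 1 of the 4 progenitor arrays was left out (adjusted p = 0.132 to 0.232), after quantile normalization (0.0893) and with no filter on dim genes (0.0686). F1 had 205.4 and 236.8, at a position of 0.56. The Pop4 signal in the high class was close to the filter of 168.8, below which a gene was not tested.

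The genes lying between Uri1 and Pop4 did not share their pattern. Ccne1, 1600014C10Rik and Plekhf1 lie there, and the last 2 were tested. Plekhf1, an endosomal phosphoinositide-binding protein, had a difference of -0.04 (SE 0.13) and 1600014C10Rik one of 0.13 (SE 0.08), with overlapping classes in both and C3 minus B6 differences of -0.0017 and 0.05. Over the whole stretch between Uri1 and Bcat2, 46 genes were tested and 0 passed. The classes did not overlap for 2 of them (4.35%, against 1.57% of all genes), namely Pop4 and Rpl13a. The difference was below 0.25 in size for 42 of these 46. Of these 46 genes 1 passed C3 minus B6, which was Pop4, so the others held no called progenitor difference that could have shown the division.

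**Figure D2:**
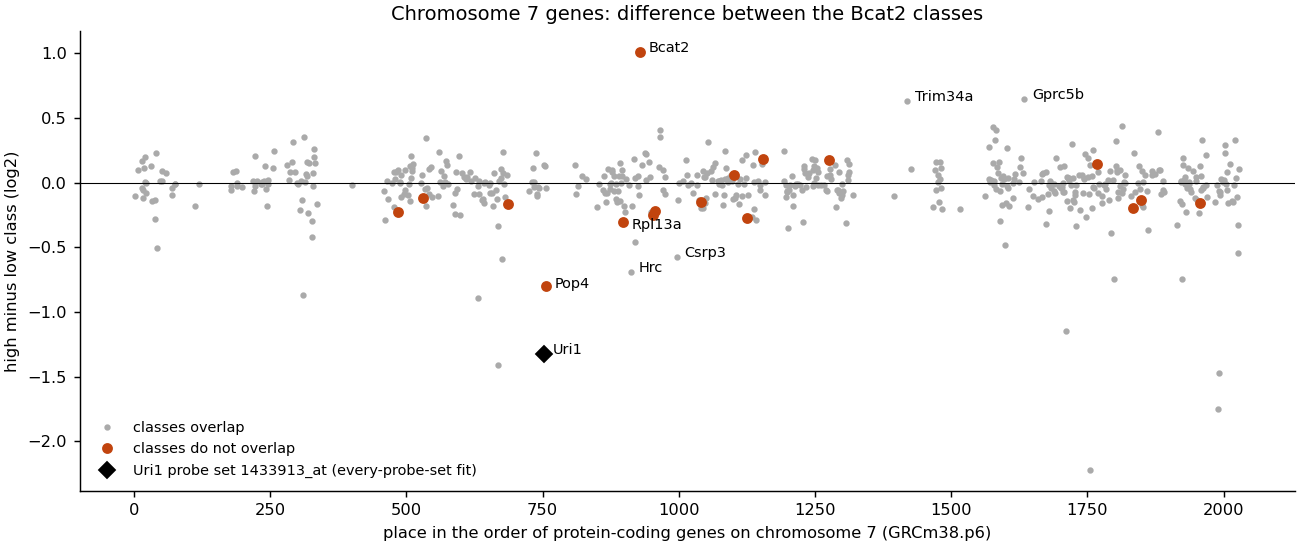
Difference between the high and low class (log2) of each tested chromosome 7 gene against its place in the order of protein-coding genes; orange points are genes whose strain means do not overlap, and the black diamond is Uri1 probe set 1433913_at. Bcat2 stands above the other non-overlapping genes and Uri1 and Pop4 below them, while the low grey points include muscle genes such as Tnni2 and Tnnt3.

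The genes next to Bcat2 likewise did not separate the classes. On the near side these were Ruvbl2 (a DNA helicase of chromatin remodelling and chaperone complexes, 0.03, SE 0.11), Gys1 (muscle glycogen synthase, -0.46, SE 0.40), Nucb1 (a Golgi calcium-binding protein, -0.03, SE 0.10), Ppp1r15a (which guides the dephosphorylation of eIF2alpha, 0.05, SE 0.15) and Plekha4 (-0.10, SE 0.11). On the far side they were Rasip1 (an endothelial Ras-interacting protein, 0.13, SE 0.21), Car11 (0.23, SE 0.14), Dbp (0.22, SE 0.36), Sphk2 (sphingosine kinase, 0.02, SE 0.11) and Cyth2 (an ARF exchange factor, 0.16, SE 0.09). None of the 10 passed, and the classes overlapped in each. The intervals are not all narrow, and that of Gys1 ran from -1.34 to 0.43.

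Dbp, a clock-controlled transcription factor, is among the nearest genes to Bcat2 and did differ between the progenitors. Its signal was 167 in B6 and 377 in C3, a difference of 1.10 (SE 0.22, adjusted p = 0.00990, limma), a call that was lost without the B6 array numbered 2 (adjusted p = 0.175) or the C3 array numbered 1 (0.0926). Yet its strain signals in the recombinant inbred strains were 884 to 1812 in the high class and 567 to 2220 in the low class, so all 9 strains lay above both progenitors. The circadian clock list, of which Dbp is a member, had mean log2 values of 9.51 to 9.99 in the high class and 9.16 to 9.81 in the low class against 8.75 in B6 and 9.08 in C3. The part of the clock genes in the Dbp values was not tested, and the hour of tissue collection is not given in the sources used here. In the split, 11 of 13 clock genes had a higher mean in the high class (median 0.22, against -0.009 over all genes), 0 passed, and Cry2, a clock repressor, had an unadjusted p of 0.0386 at 0.49 (SE 0.21).

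Probe sets that separate the progenitors place the strains at points along chromosome 7, by signal and not by genotype. These points are too far apart to fix where the division of the strains ends. Between Bcat2 and Trim34a, for example, lie 489 protein-coding genes. For those that passed C3 minus B6 with a size of at least 0.7, each strain was placed between B6 at 0 and C3 at 1, and taken as nearer C3 above 0.5. Uri1 1433913_at placed the 6 high strains at 0.77 to 1.04 and the 3 low strains at -0.02 to 0.18. Pop4 placed them at 0.87 to 1.38 and at -0.25 to 0.14. All 9 strains were thus on the same side as for Bcat2 at both genes.

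Away from Uri1, Pop4 and Bcat2 the sides were mixed. Before Uri1 in gene order, Rps9 (probe set 1434624_x_at) put 4 of 9 strains on the side of Bcat2. Rps9 is a ribosomal protein gene with near-identical copies, so which copies this probe set measures, and where they lie, is uncertain. Ppp1r37, a regulatory subunit of protein phosphatase, also put 4 of 9 there, but gives no clear division. For Ppp1r37 BXH4 (0.71) alone lay nearer C3, and the other strains were at 0.09 to 0.44. After Bcat2, Serpinh1, a collagen chaperone, put 6 of 9 on its side (1456733_x_at), with positions spread from 0.24 to 1.45 and 7 strains nearer C3. These Rps9 and Serpinh1 probe sets are not the brightest of their genes. The brightest ones did not reach the cut for C3 minus B6. Trim34a, an interferon-inducible ubiquitin ligase of the TRIM family, put 4 of 9 on that side. Gprc5b, an orphan receptor, put 6 of 9 there, and Tmem159, a lipid droplet protein, 5 of 9. Another Gprc5b probe set had a C3 minus B6 of 0.62 (SE 0.38), which did not pass. Dbp, where every strain lay beyond C3, and Slc1a5, a glutamine transporter for which all 9 strains lay on the B6 side at -0.50 to 0.34, give no division. The progenitor calls behind these positions were not equally firm: that of Ppp1r37 was lost without any 1 of the 4 progenitor arrays (adjusted p = 0.0531 to 0.366), and that of Tmem159 without the arrays numbered 1 of B6 (0.218) or C3 (0.105).

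Trim34a shows that a large progenitor difference need not follow the classes. Its signal was 888 in B6 and 130 in C3, a difference of -2.63 (SE 0.44, adjusted p = 0.00188, limma). In the high class it was 60 in BXH6, 62 in BXH10, 105 in BXH4, 868 in BXH2, 981 in BXH14 and 1084 in BXH19. In the low class it was 47 in BXH8, 92 in BXH9 and 1040 in BXH7. Each class thus held strains near either progenitor, and the difference between the classes was 0.63 with an SE of 1.13.

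**Figure D3:**
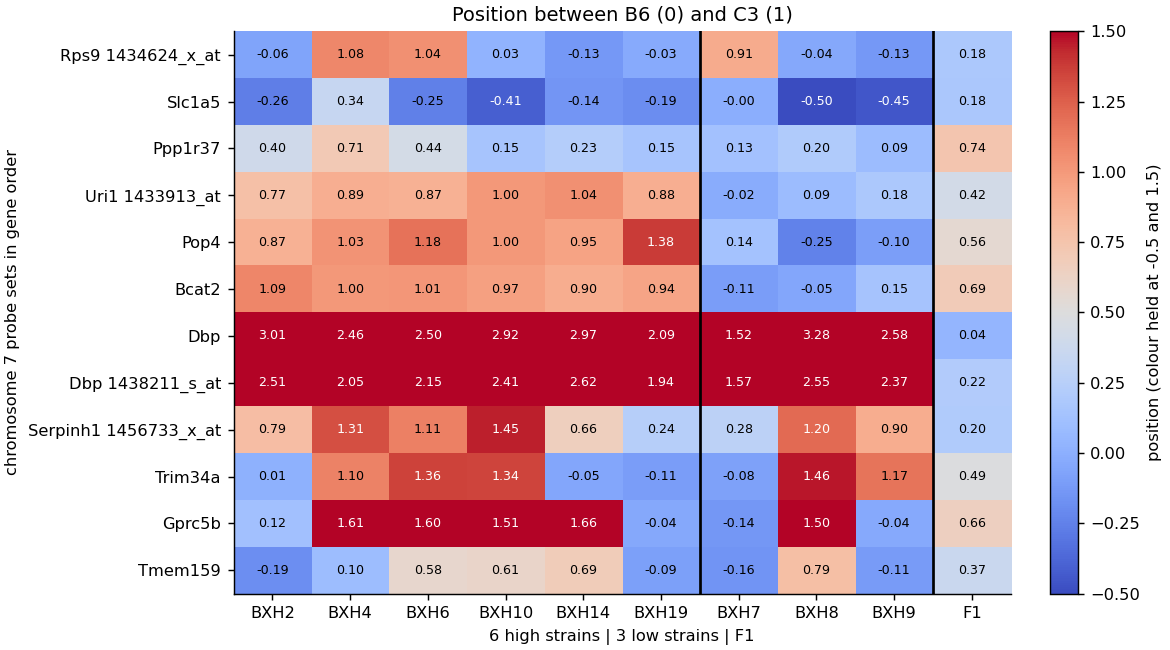
Position of each recombinant inbred strain and F1 between B6 (0, blue) and C3 (1, red) on the log2 scale, for chromosome 7 probe sets in gene order that separate the progenitors. Uri1, Pop4 and Bcat2 divide the 6 high from the 3 low strains. Slc1a5 and the Dbp probe sets place all 9 strains on one side, and Ppp1r37 places all but BXH4 on one side. The others divide the strains in other ways.

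Of the 606 chromosome 7 genes tested beside Bcat2, 16 had classes that did not overlap (2.64%), against 114 of 7673 elsewhere (1.49%). This was the second share of 20 chromosomes, below chromosome 11 (20 of 730, 2.74%) and just above chromosome 15 (9 of 343, 2.62%). At an unadjusted p below 0.05 there were 27 on chromosome 7 (4.46%) and 257 elsewhere (3.35%). The sign of the difference was that of C3 minus B6 for 11 of the 16 (68.8%) and for 54 of the 114 elsewhere (47.4%). Over all tested genes these shares were 53.0% on chromosome 7 and 49.5% elsewhere. Chromosome 11, which does not hold Bcat2, gave a larger share than chromosome 7, and these counts are given as a description.

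**Figure D4:**
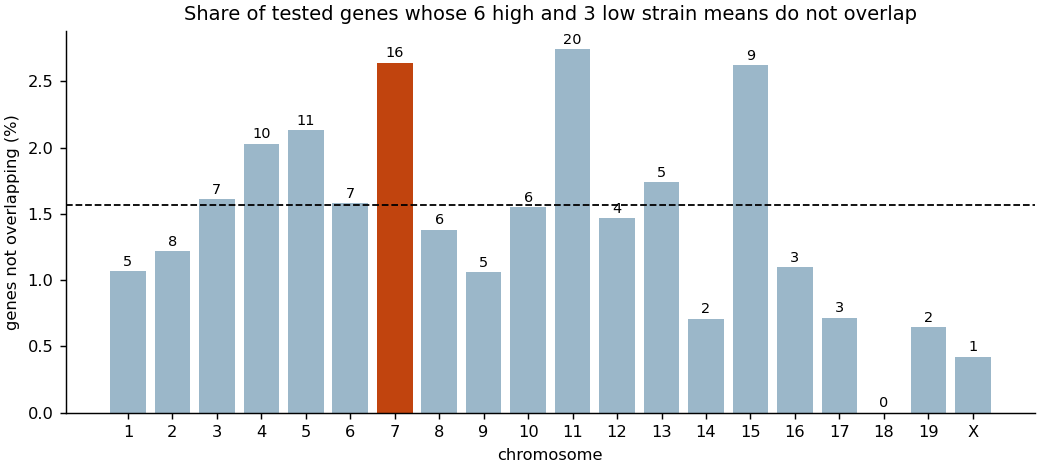
Percent of tested genes on each chromosome whose 6 high and 3 low strain means do not overlap, with the number of such genes above each bar and the dashed line at 1.57% for all genes. Chromosome 7 (orange, 2.64%) stands beside chromosomes 11 (2.74%) and 15 (2.62%).

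After Pop4, the chromosome 7 genes with the lowest p were Rpl13a, Alpk3, Csrp3, Nomo1, Tnni3, Spon1, Zfp574, Hrc and Nfkbib, each with an adjusted p of 0.997. Rpl13a, a protein of the large ribosomal subunit, had strain signals of 5986 to 7788 in the high class and 8234, 8274 and 8688 in the low class. Its difference was -0.31 (SE 0.08), its progenitors stood at 7804 (B6) and 6076 (C3), and 3 of its 4 probe sets had classes that did not overlap while the remaining one had a difference of -0.03. Ribosomal protein genes have many near-identical copies, so which copies a probe set measures is uncertain. Alpk3, an alpha-kinase of heart muscle, had 263 to 297 in the high class and 313, 333 and 360 in the low class (-0.27, SE 0.08), with 382 in B6 and 268 in C3. Nomo1, a membrane protein of the endoplasmic reticulum, had 772 to 876 against 925 to 990 (-0.22, SE 0.07), though its other probe set gave -0.12 with overlapping classes. Zfp574, a zinc finger protein, had 304 to 354 against 368 to 387 (-0.22, SE 0.08), while its other probe sets gave -0.06 (SE 0.14) and 0.08 (SE 0.24) with overlapping classes.

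The others overlapped between the classes. Spon1, an extracellular matrix protein, had 2008 to 2677 in the high class against 1789 to 2141 (0.27, SE 0.10), and another probe set gave -0.15. Nfkbib, an inhibitor of NF-kappaB, had 324 to 428 against 427 to 445 (-0.25, SE 0.09). Csrp3, a muscle LIM protein, had 637 to 930 against 747 to 1423 (-0.58, SE 0.19). Hrc, which binds calcium in the sarcoplasmic reticulum, had 309 to 720 against 520 to 1080 (-0.69, SE 0.25), and Tnni3, cardiac troponin I, 722 to 1119 against 1090 to 1778 (-0.50, SE 0.17). The BXH9 arrays of Tnni3 gave 3003.0 and 1049.7, and its difference was -0.25 without the first and -0.75 without the second.

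Elsewhere in the genome the 8 genes with the lowest p were Rab5c, Atp5g1, Tmed4, Myoz2, Fabp3, Sebox, Vapb and Zbtb16, and none passed (adjusted p = 0.997 for each, limma). Rab5c, a small GTPase of early endosomes, had 917 to 1277 in the high class and 1491, 1530 and 1556 in the low class (-0.53, SE 0.11). Its arrays within a strain were far apart, with 632.1 and 1328.0 in BXH19 and 1135.4 and 2061.0 in BXH8, and both progenitors lay below the low class at 890 (B6) and 822 (C3). Atp5g1, a subunit of the ATP synthase ring, had 920 to 1148 against 1287 to 1534 (-0.39, SE 0.09). Vapb, which tethers the endoplasmic reticulum to other membranes, had 475 to 668 against 782 to 883 (-0.45, SE 0.11), and its other probe set gave 0.04. Sebox, a homeobox factor, had 194 to 295 against 132 to 184 (0.60, SE 0.15), or 0.35 without the BXH9 array numbered 2.

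Tmed4, a cargo receptor of the early secretory pathway on chromosome 11, had the lowest adjusted p between the progenitors among these 8. Its strain signals were 902 to 949 in BXH2, BXH4, BXH6, BXH14 and BXH19, 1233 in BXH10, and 1304, 1305 and 1340 in the low class. B6 had 1283 and C3 932, a difference of -0.45 (SE 0.12) that nonetheless did not pass (adjusted p = 0.0793, limma). On the scale from B6 to C3 the 5 lower strains were at 0.95 to 1.10, BXH10 at 0.12 and the low class at -0.14 to -0.05. So 8 of 9 strains lay on the side of Bcat2, and BXH10 did not.

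Zbtb16 had the largest difference of the 8 and the widest spread within a class. Zbtb16 is a zinc finger transcription factor known from lymphoid cells and as a target of glucocorticoids. Its strain signals were 429 to 1577 in the high class, and 131, 148 and 580 in the low class, so that BXH8 lay among the high strains. The arrays of a strain could lie far apart, with 3144.9 and 198.0 in BXH14, and 983.6 and 413.4 in BXH2. The difference between the classes was 1.84 (SE 0.46), and the other Zbtb16 probe set gave 1.14.

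Genes off chromosome 7 that do separate the progenitors did not follow the classes. There were 108 such genes with a called C3 minus B6 difference of at least 0.7 in size. The number of strains on the side of Bcat2 was at most 7 of 9, reached by 4 genes. Of the 4, Baiap2l1 on chromosome 5, which shapes actin at membranes, was off in BXH2 and BXH9. Pdxdc1 on chromosome 16 was off in BXH10 and BXH14. D030056L22Rik on chromosome 19 was off in BXH8 and BXH9, and Erdr1 on chromosome X in BXH7 and BXH9. For these last genes most low strains thus lay nearer C3. The class difference of Erdr1 (0.72) was opposite in sign to its C3 minus B6 (-1.205). Baiap2l1 had 633 in B6, 3733 in C3, 677 in BXH2, 3316 to 5363 in the other high strains, 616 and 648 in BXH8 and BXH7, and 3579 in BXH9. The class I genes H2-D1 and H2-K1 and their chromosome 17 neighbour Glo1, a detoxifying glyoxalase, put 5 of 9 strains on that side, with BXH4, BXH7, BXH10 and BXH19 off in all 3 genes.

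The genes that act after Bcat2 in branched-chain amino acid breakdown held no called difference between the classes. Of 22 tested members 0 passed, 17 had a lower mean in the high class and 5 a higher one, and the median difference was -0.07 against -0.009 over all genes. For the dehydrogenase complex, Bckdha gave -0.09 (SE 0.11), Bckdhb -0.07 (SE 0.14) and Dbt -0.17 (SE 0.14). Dld, a subunit that pyruvate dehydrogenase shares, had 409 to 499 in the high class and 531, 560 and 583 in the low class, a difference of -0.28 (SE 0.08) with an unadjusted p of 0.00632. It alone of the 22 had classes that did not overlap, against 1.57% of all genes. The kinase Bckdk, which inhibits the complex, gave -0.13 (SE 0.09).

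None of the later enzymes passed. The largest difference above 0 was that of Hsd17b10, of isoleucine breakdown, at 0.24 (SE 0.14), with a second probe set at -0.04. Ivd, of leucine breakdown, gave -0.05 (SE 0.09), Mccc1 -0.09 (SE 0.12) and Auh 0.01 (SE 0.09). For valine, Hibch gave -0.13 (SE 0.12), Hibadh -0.0049 (SE 0.08) and Aldh6a1 -0.08 (SE 0.12). The propionate enzymes Pcca and Pccb gave -0.08 (SE 0.12) and 0.0014 (SE 0.08). Mcee gave -0.19 (SE 0.12), and Slc25a44, the mitochondrial carrier of branched-chain amino acids, 0.05 (SE 0.10). The widest 95% interval was that of Mmut, methylmalonyl-CoA mutase, whose signals ran from 410.4 to 1054 over the 9 strains and whose interval ran from -0.77 to 0.74.

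Amino acid handling beyond this pathway also gave 0 members that passed. In the transport and glutamate list of 10 tested genes the median was -0.07, and Got1, the cytosolic aspartate aminotransferase, had the lowest unadjusted p (0.00693) at -0.42 (SE 0.13), with 363 to 414 in the high class against 403, 538 and 640. Slc3a2 and Slc7a5, which together form a leucine transporter, gave 0.12 (SE 0.12) and 0.09 (SE 0.37). In the list of mTORC1 and leucine sensing the median of 17 genes was -0.04 and Lamtor4, of the lysosomal Ragulator complex, gave -0.31 (SE 0.12, unadjusted p = 0.0247). In the ATF4 list of 14 amino acid response genes the median was -0.06 and none had an unadjusted p below 0.05.

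Muscle lists had the medians farthest from 0. All 11 cardiac muscle genes, a list for the heart muscle sleeve of pulmonary veins, had a lower mean in the high class. Their median was -0.55, and 0 passed. At an unadjusted p below 0.05 (limma) there were 8 of the 11, against 158 of 8279 genes lower in the high class (1.91%). The list is of 1 tissue, so its members are not 11 separate observations. The list means were 9.52 to 10.82 in the high class, highest in BXH2. In the low class they were 10.19 (BXH7), 10.63 (BXH8) and 11.08 (BXH9), so the classes overlapped. The highest single array of the low class had a list mean of 11.93, above each of these strain means. The BXH9 list mean thus rests largely on 1 array. Tnni3, a list member, had 3003.0 and 1049.7 in the BXH9 arrays, and its difference of -0.50 became -0.25 without the first. How far the list median, or the 8 of 11, depends on the higher BXH9 array was not tested. Myl4, an atrial myosin light chain, had 1500 to 2753 against 3060, 3324 and 3470 (-0.64, SE 0.17). It alone among the 11 did not overlap, against 1.57% of all genes. The median of C3 minus B6 had the opposite sign, at 0.39, and no member passed there. Actc1 (-0.07), Nppa (-0.87), Sln (-0.31) and Myl3 (-0.21) were below 0, and the other members were above 0.

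All 13 skeletal muscle genes also had a lower mean in the high class, with a median of -1.47 and 0 that passed. Their median C3 minus B6 was -1.98, of the same sign, and no member passed there. Here the strains fell apart within each class, with list means of 11.03 in BXH2 and 7.501 to 8.51 in the other high strains, and 11.10, 11.43 and 7.18 in BXH8, BXH9 and BXH7. Several leading genes are muscle genes themselves. Myoz2, a calcineurin-binding protein of the Z disc, had 340 to 632 in the high class against 640, 819 and 1171 (-0.85, SE 0.20), and Fabp3, the heart fatty acid-binding protein, 473 to 680 against 666, 966 and 1407 (-0.78, SE 0.19). With the mean of the skeletal muscle list as a covariate, the differences became -0.62 for Myoz2, -0.56 for Fabp3, -0.34 for Csrp3, -0.40 for Hrc and -0.40 for Tnni3. With the mean of the cardiac list, of which Tnni3 is a member, they became -0.43, -0.45, -0.27, -0.19 and -0.22 in the same order. Alpk3 gave -0.26 in both fits, against -0.27 without a covariate. All of these kept their sign and none passed in either fit. The list means come from the same arrays, and the cardiac covariate was added after seeing the data.

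**Figure D5:**
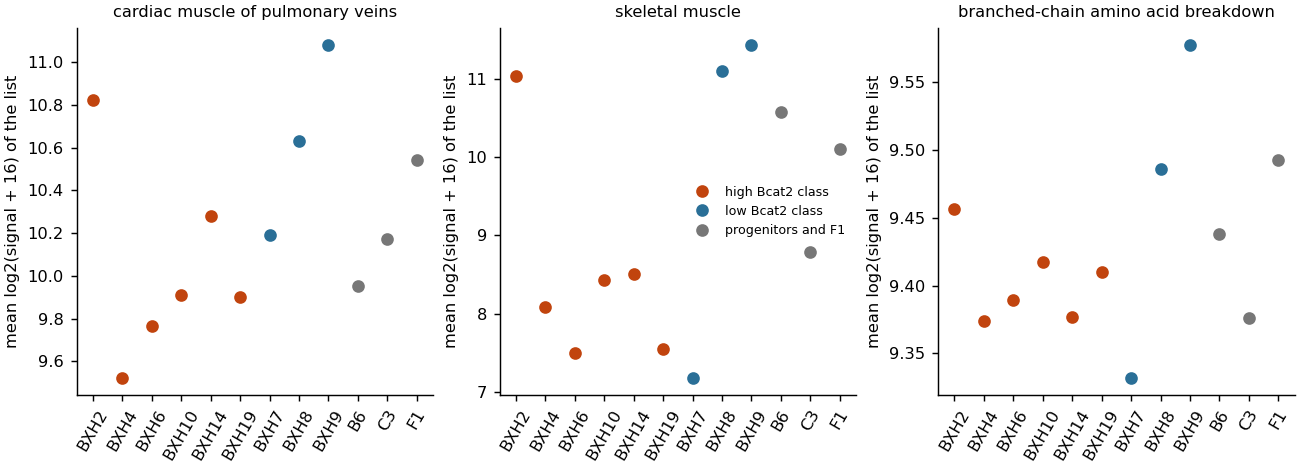
Mean log2(signal + 16) of 3 gene lists in each strain, with the 6 high strains in orange, the 3 low strains in blue, and the progenitors and F1 in grey; the axes do not start at 0. BXH2 lies with BXH8 and BXH9 in the skeletal muscle list, and BXH7 lies low there and in the list of branched-chain amino acid breakdown.

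The remaining lists gave medians closer to that of all genes. The adipose tissue list had a median of -0.44 over 6 genes, with strain means of 9.03 to 9.72 in the high class and 8.94 to 10.29 in the low class. The squamous epithelium list had -0.21 over 5 genes, with 6.88 to 9.33 against 7.10 to 9.93. The neutrophil list had 0.17 over 8 genes and the red blood cell list 0.14 over 3, and the lists for T cells, B cells, NK cells, alveolar macrophages, endothelium, smooth muscle, alveolar and airway epithelium, cell cycle and interferon response lay between -0.09 and 0.08. No member of these lists passed.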

How the data were processed

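Lung RNA of 24 samples was hybridised to Affymetrix Mouse 430A arrays, with Trizol extraction and T7-oligo(dT) amplification per the labels' protocols. The authors' deposited table holds 1 linear intensity (signal) for each of 22690 probe sets; no source used here gives the software or scaling. Of these, 20380 probe sets had 1 gene symbol in the platform annotation, 691 several and 1555 none, and 64 were controls. Gene order came from RefSeq GRCm38.p6, which matched 20351 probe sets.

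Signals were taken as log2(signal + 16), which understates the change of dim genes. Each gene was taken by its brightest probe set, and the top 60% of probe sets by mean (168.8) left 8280 genes. The classes were compared on 9 strain means (7 residual degrees of freedom) with limma 3.58.1 in R 4.3.3 (lmFit, eBayes with trend), and C3 minus B6 on 24 arrays (12 residual degrees of freedom) in a model of 12 strains that shares one estimate of the spread. A gene passed at an adjusted p (Benjamini-Hochberg over all genes) below 0.05. Every array of a strain carries Bcat2 and the other genes alike, so shared array error enters both. The number of arrays limits the precision. The fit was tested on simulated data.

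The members and lists were chosen with earlier results of these data known. Named genes were the 10 lowest p on chromosome 7, the 8 lowest elsewhere, the 5 nearest on each side of Bcat2, chromosome 7 genes that passed C3 minus B6 at 0.7 or more, and the breakdown list with 17 genes of other loci. The 24 lists were described by counts and medians, without set tests. Alternatives covered the offset, filter, probe sets, quantile normalization, trend, arrays with strain as random block, the replicate block, muscle covariates and leaving out strains or arrays.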

Additional observations from a re-analysis of the deposited data

Results flagged for a closer look

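Among 25 probe sets whose 6 high strain signals were checked for a strain far from the others (Dixon's gap over the range above 0.625), 4 had one, and chance alone marks about 1 group in 20. Tmed4 had 1233 in BXH10 against 902 to 949 in the other 5, which is near B6. Vapb had 475 in BXH19 against 636 to 668. Atp5g1 had 920 in BXH10 against 1067 to 1148. Slc1a5 had 778 in BXH4 against 1132 to 1396.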

How the results depend on the processing

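The count of genes that passed between the classes, and that on chromosome 7, stayed at 0 under 10 of 14 other settings and in all 27 fits that left out a strain or an array (0 to 0). It was 1 with every probe set (Uri1), without the variance trend (Pop4), with 18 arrays and strain as a random block (Pop4), and with the replicate block added to that (1, Pop4, adjusted p = 0.000889). Uri1 1433913_at passed in 37 of 38 alternatives (-1.40 to -1.21) and was lost with the arrays numbered 1 alone (adjusted p = 0.0953). The numbers do not pair the samples: over 36 pairs of strains the correlation of same-numbered deviations ran from -0.255 to 0.344 (median 0.0105). Genes with non-overlapping classes numbered 205 with no filter, 84 in the top 40% and 212 with every probe set, as more or fewer features were tested, and 102 to 188 without 1 array. C3 minus B6 gave 209 with every probe set, 129 with the replicate block, and 71 to 112 without 1 progenitor array. The difference between the classes changed sign for Dbp without BXH7 (-0.30), Trim34a without BXH8 (-0.18), Tmem159 without BXH7 (0.049) or BXH9 (0.030), and Slc1a5 with the cardiac muscle covariate (0.035). Leaving out 1 strain gave -0.30 to 0.67 for Dbp, -0.18 to 1.85 for Trim34a and -0.38 to 0.049 for Tmem159; none had passed, and the cause was not tested.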
